A study of Mus musculus with 10 samples.

Results

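Nitric oxide synthase 2, the arginases and the enzymes that make or use their substrates and products were described in bone marrow derived macrophages (BMDMs) from Rac2-/- and WT mice. The genes were given as a list of 8: Nos2, Arg1, Arg2, Ass1, Asl, Odc1, Gch1 and Oat. Each was read from the array feature that the platform table assigns to that symbol alone, and from the feature with the highest mean over 10 arrays where there were several. A feature is the set of probes that the array summarizes to 1 value. By this rule 7 of the 8 genes had a feature, of 19935 genes with a feature of their own. Both features that touch Ass1 are also assigned to Gm5424, so no value is given for Ass1.

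Of the 10 arrays, 5 carried RNA of Rac2-/- BMDMs and 5 carried RNA of WT BMDMs. Rac2 encodes a small GTPase that is found mainly in blood cells. Marrow of male mice on a C57BL background was used for both groups, and no source used here states the age of the mice. Cells of both groups were grown with M-CSF at 50 ng/ml for 7 days, with 8 days in culture, 20% FBS and 16% oxygen, which the labels name normoxia. At least 80% of cells were Mac1-positive, and RNA integrity numbers lay between 8 and 9, as the labels give them, while the methods of the study differ in the day of harvest and in both of these measures. The labels name no cytokine or microbial stimulus beyond M-CSF, so these values are those of resting cultured macrophages. The design text gives 5 mice of each genotype without tying an array to a mouse, so the p-values reflect array-to-array spread, part of which may be technical. Rac2-/- mice and their normal littermates, per the methods, differ in every cell that would express Rac2.

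Macrophages use arginine along competing routes. Nos2, the inducible nitric oxide synthase, oxidizes arginine to nitric oxide and citrulline and needs tetrahydrobiopterin, whose synthesis starts with GTP cyclohydrolase, the product of Gch1. Arg1 in the cytosol and Arg2 in mitochondria split arginine into ornithine and urea. Ornithine is turned into polyamines through ornithine decarboxylase (Odc1) or towards proline and glutamate through ornithine aminotransferase (Oat). Argininosuccinate synthase (Ass1) and argininosuccinate lyase (Asl) rebuild arginine from citrulline. In mouse macrophages, Nos2 is known for its induction by bacterial products with interferon gamma, and Arg1 for its induction by IL-4.

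All values are log2 values made with RMA, which sets the arrays on a common scale, and every difference is a log2 difference, Rac2-/- minus WT. A value of 1 feature is not set against that of another, since probes differ in brightness. Features were tested with limma without a block, with Benjamini-Hochberg adjustment over every feature that passed a filter on low values, and a threshold of 0.05. All 7 genes passed this filter. The targeted gene stood at 6.90, 6.80, 7.04, 7.54 and 7.20 on Rac2-/- arrays 1 to 5 and at 11.81, 11.82, 12.26, 12.19 and 12.42 on WT arrays 1 to 5. Rac2 was thus low on every Rac2-/- array, with means of 7.10 ± 0.29 in Rac2-/- and 12.10 ± 0.27 in WT (SD, n = 5 each), 32.1-fold lower in Rac2-/- (limma adjusted p = 7.73e-07). This goes with the labels, although no source says if the probes fall inside the deletion.

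In both genotypes arrays 1 and 2 stood apart from arrays 3 to 5. Pairs of arrays correlated at 0.974 to 0.996 within these array sets and at 0.934 to 0.955 between them, whatever the genotype. No source names the sets as a batch. Each set holds both genotypes, so differences are also given within arrays 1 and 2 and within arrays 3 to 5. The replicate number as a block, which also takes up the array set, is given for the arginine genes and markers where it changed a call. Same-numbered arrays were no more alike than other arrays of their set, so this pairing is not established. None of 8 macrophage markers passed the test without the block, and their mean (Adgre1, Csf1r, Cd68, Itgam, Lyz2, Mertk, Fcgr1 and Cd14) ranged from 12.00 to 12.23 on Rac2-/- arrays and from 12.07 to 12.28 on WT arrays. Single markers did separate the groups: Itgam was at 11.80 to 11.88 in Rac2-/- and 11.41 to 11.64 in WT, Fcgr1 at 10.87 to 12.00 in Rac2-/- and 12.17 to 12.65 in WT, and Cd68 at 12.32 to 12.59 in Rac2-/- and 12.62 to 12.73 in WT. For the other macrophage markers the groups overlapped, and of all features 4.52% showed no overlap. With the replicate block Itgam passed as higher (adjusted p = 0.0380) and Fcgr1 as lower (adjusted p = 0.0449) in Rac2-/-, beside 6.35% of all features.

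Nos2 was the gene of the list that passed the test without the block, as lower in Rac2-/- BMDMs. It stood at 6.24, 6.17, 6.24, 6.24 and 5.97 on Rac2-/- arrays 1 to 5, against 7.31, 7.60, 7.90, 7.89 and 8.20 on WT arrays 1 to 5. The Rac2-/- arrays lay close together and every WT array lay above all of them. The means were 6.17 ± 0.12 in Rac2-/- and 7.78 ± 0.34 in WT (SD, n = 5 each), a difference of -1.61 (SE 0.15, 95% interval -1.95 to -1.27), or 3.05-fold lower (limma, Benjamini-Hochberg adjusted p = 0.000703). Since the groups did not overlap, Nos2 was lower in Rac2-/- in 5 of 5 numbered pairs by necessity, by differences of -2.23 to -1.07. The call was kept without any single array, with an adjusted p of 0.000333 to 0.0040. The mean over 6 mast cell and basophil markers, of which 4 were tested and none passed, was also lower in Rac2-/- without overlap, at 4.64 to 4.86 on Rac2-/- arrays and 4.93 to 5.70 on WT arrays, and its part in the Nos2 difference was not tested. In bulk RNA, less Nos2 RNA per cell and fewer cells that carry it cannot be told apart.

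The Nos2 difference was -1.25 within arrays 1 and 2 and -1.85 within arrays 3 to 5. Arrays 3 to 5 minus arrays 1 and 2 came to -0.05 for Nos2 in Rac2-/- and to 0.54 in WT, so the WT arrays moved between the sets and the Rac2-/- arrays hardly did. The Nos2 mean lay above that of 51.2% of features in Rac2-/- and of 70.9% in WT. Without detection calls it is not settled how much of the Rac2-/- signal is above background. This limits how the close Rac2-/- arrays, their lack of movement and the fold given above can be read. The difference of the differences was -0.60 (SE 0.20, unadjusted p = 0.015), and it did not pass in limma after Benjamini-Hochberg adjustment over all features (adjusted p = 0.805). The share of features that passed this test was 0.00%, and 1560 features had an unadjusted p under 0.05. Within arrays 1 and 2 alone, where 2 arrays stand against 2, the adjusted p of Nos2 was 0.191 and the groups did not overlap.

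Gch1, which supplies the cofactor of Nos2, had a lower mean in Rac2-/- BMDMs but did not pass the test. It stood at 8.33, 7.62, 7.16, 6.80 and 7.04 on Rac2-/- arrays 1 to 5 and at 8.31, 8.52, 7.74, 7.59 and 7.98 on WT arrays 1 to 5. The groups overlapped through Rac2-/- arrays 1 and 2, and array 1 was level between the genotypes while the other pairs were lower in Rac2-/-. The means were 7.39 ± 0.60 in Rac2-/- and 8.03 ± 0.39 in WT (SD, n = 5 each), a difference of -0.64 (SE 0.29, 95% interval -1.28 to 0.01, limma adjusted p = 0.491). The difference was -0.44 within arrays 1 and 2 and -0.77 within arrays 3 to 5, where the groups did not overlap. With the replicate block the adjusted p was 0.0529, and with a term for the array set it was 0.025.

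**Figure D1:**
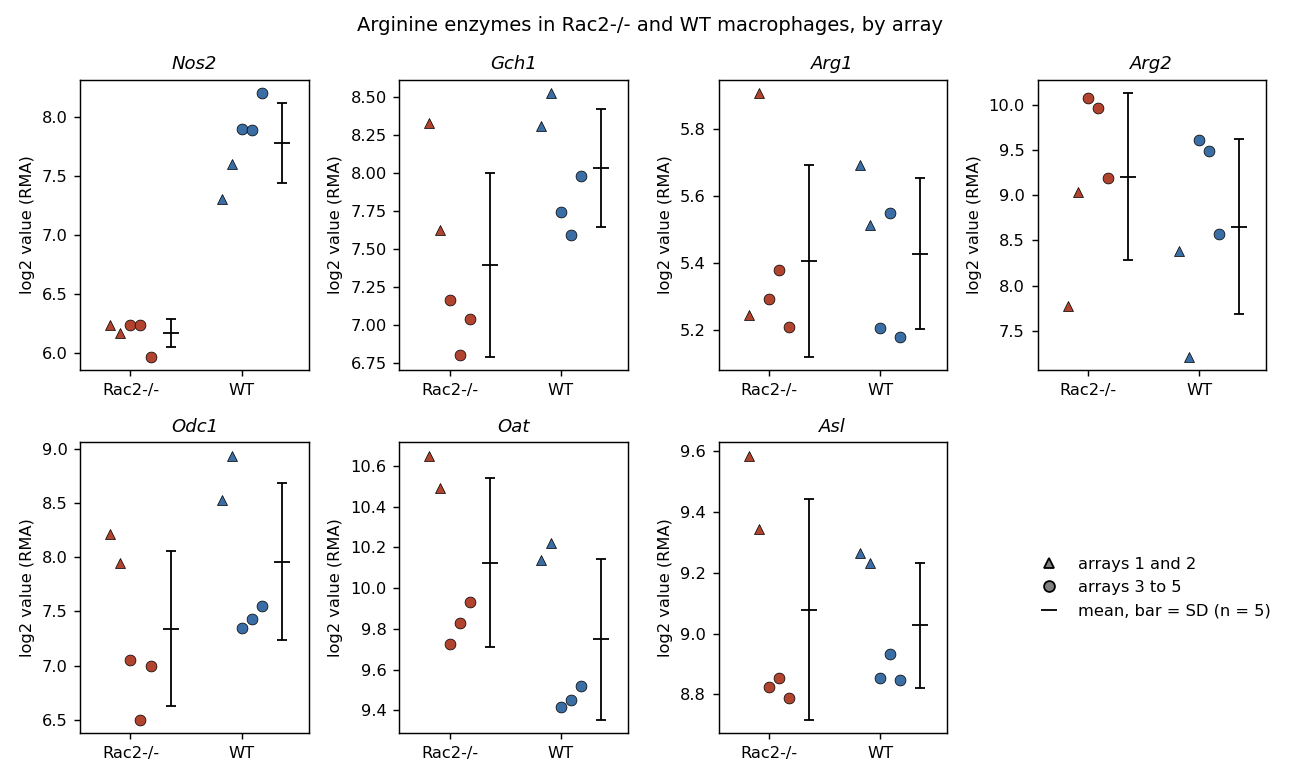
Log2 RMA values of the 7 arginine enzymes on each array, with Rac2-/- BMDMs on the left (red) and WT BMDMs on the right (blue). Each panel has its own vertical axis, triangles are arrays 1 and 2, circles are arrays 3 to 5, and the line with its bar is the mean with the SD over 5 arrays. Nos2 is the only panel in which no Rac2-/- array reaches a WT array, and in Gch1, Odc1, Oat and Asl the triangles of a genotype lie above its circles.

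Neither arginase passed the test. Arg1 stood at 5.24, 5.91, 5.29, 5.38 and 5.21 on Rac2-/- arrays 1 to 5 and at 5.69, 5.51, 5.20, 5.55 and 5.18 on WT arrays 1 to 5. The arrays of both groups were mixed, and the highest of all was Rac2-/- array 2. The means were 5.41 ± 0.29 in Rac2-/- and 5.43 ± 0.23 in WT (SD, n = 5 each), a difference of -0.02 (SE 0.16, limma adjusted p = 0.999). The 95% interval of -0.37 to 0.33 leaves room for a change of that size in either direction. The Arg1 feature was below the array median on 10 of 10 arrays, and without detection calls it is not settled how much of this signal is above background.

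Arg2, the mitochondrial arginase, was the most variable of the genes. It stood at 7.77, 9.03, 10.08, 9.97 and 9.19 on Rac2-/- arrays 1 to 5 and at 8.39, 7.21, 9.61, 9.49 and 8.58 on WT arrays 1 to 5. In both genotypes arrays 3 and 4 were highest, and the groups overlapped over most of their range. The means were 9.21 ± 0.93 in Rac2-/- and 8.65 ± 0.97 in WT (SD, n = 5 each), a difference of 0.55 (SE 0.53, 95% interval -0.63 to 1.74, limma adjusted p = 0.940). Arrays 3 to 5 exceeded arrays 1 and 2 by 1.34 in Rac2-/- and by 1.43 in WT, which is more than the difference between the genotypes. The difference was 0.60 within arrays 1 and 2 and 0.52 within arrays 3 to 5, and Arg2 was higher in Rac2-/- in 4 of 5 numbered pairs. Single arrays moved it widely, to 0.19 without WT replicate 2, 0.34 without Rac2-/- replicate 3, 0.37 without Rac2-/- replicate 4 and 0.91 without Rac2-/- replicate 1.

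The enzymes that use ornithine passed with the replicate block and not without it, in opposite directions. Odc1, the rate-limiting enzyme of polyamine synthesis, stood at 8.22, 7.94, 7.05, 6.50 and 6.99 on Rac2-/- arrays 1 to 5, against 8.52, 8.94, 7.34, 7.43 and 7.55 on WT arrays 1 to 5. Over all arrays the groups overlapped, since arrays 1 and 2 of both genotypes were the highest, but within each array set every Rac2-/- array lay below every WT array. The difference was -0.61 (SE 0.41, 95% interval -1.52 to 0.29, limma adjusted p = 0.788), with -0.65 within arrays 1 and 2 and -0.59 within arrays 3 to 5. With the replicate block the adjusted p was 0.0389, and with a term for the array set it was 0.0131. The difference was -0.37 without WT replicate 2. That Odc1 was lower in Rac2-/- in 5 of 5 numbered pairs follows from the separation within each array set.

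A second feature is assigned to Odc1 alone. It stood at 7.54, 7.51, 6.77, 6.66 and 7.00 on Rac2-/- arrays 1 to 5 and at 7.77, 8.15, 7.18, 7.08 and 7.11 on WT arrays 1 to 5. Its difference of -0.36 had the same sign and the same order within both array sets, and it did not pass in limma without the block (adjusted p = 0.826) or with the replicate block (adjusted p = 0.0624).

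Oat stood at 10.65, 10.49, 9.72, 9.83 and 9.93 on Rac2-/- arrays 1 to 5, against 10.14, 10.22, 9.42, 9.45 and 9.52 on WT arrays 1 to 5. The array sets again lay apart in both genotypes, and within each set every Rac2-/- array was above every WT array. The means were 10.13 ± 0.42 in Rac2-/- and 9.75 ± 0.39 in WT (SD, n = 5 each), a difference of 0.38 (SE 0.23, 95% interval -0.14 to 0.90, limma adjusted p = 0.747). It was 0.39 within arrays 1 and 2 and 0.37 within arrays 3 to 5, so the genotype difference was nearly the same in both sets. With the replicate block the adjusted p was 0.0205, and with a term for the array set it was 0.00476. The difference was 0.25 without Rac2-/- replicate 1. That Oat was higher in Rac2-/- in 5 of 5 numbered pairs follows from the separation within each array set.

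Asl, the enzyme of arginine recycling that could be read, differed little between the genotypes. It stood at 9.59, 9.34, 8.82, 8.85 and 8.79 on Rac2-/- arrays 1 to 5 and at 9.27, 9.23, 8.86, 8.93 and 8.85 on WT arrays 1 to 5. Rac2-/- arrays were the higher of arrays 1 and 2, while among arrays 3 to 5 the groups overlapped. The difference was 0.05 over all arrays (SE 0.18, 95% interval -0.34 to 0.44, limma adjusted p = 0.999), with 0.22 within arrays 1 and 2, where the groups did not overlap, and -0.06 within arrays 3 to 5. The replicate block gave an adjusted p of 0.765.

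Counted over the list, 1 of 7 genes passed the test, Nos2, which was lower in Rac2-/-. Of all features tested, 1.90% passed, 1.11% lower and 0.795% higher in Rac2-/-. With the replicate block 3 of 7 genes passed, Nos2 and Odc1 lower and Oat higher, beside 6.35% of all features, 3.03% lower and 3.32% higher. No overlap between the groups was seen for 1 of 7 genes, beside 4.52% of features. Separation in the same direction within both array sets was seen for 3 of 7, beside 13.9% of features. The median difference was -0.02 over the 7 genes and -0.00034 over all features, while the median size of a difference, whatever its sign, was 0.55 over the 7 genes and 0.104 over all features. That 0.55 is the middle value, the difference of Arg2 (SE 0.53), which did not pass and varied widely between arrays. Nos2 (-1.61, SE 0.15), Gch1 (-0.64, SE 0.29) and Odc1 (-0.61, SE 0.41) differed by more, and Arg1, Asl and Oat by less. The genes were chosen with earlier results known. Whether the listed genes as a group differed between the genotypes was not tested.

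Over the 10 arrays the genes also varied with each other, which is given as a description because arrays share a genotype and an array set. Odc1 and Gch1 ran closest together (Pearson r = 0.93), and r was 0.90 after the mean of each array set was subtracted. Arg2 ran against both, with r of -0.89 with Odc1 and -0.88 with Gch1, and with -0.71 and -0.73 once the set means were subtracted. Nos2 correlated with Gch1 at 0.50, with Odc1 at 0.30 and with Oat at -0.56. After the set means were subtracted these were 0.87, 0.85 and -0.91, values that carry the genotype difference of each gene.

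**Figure D2:**
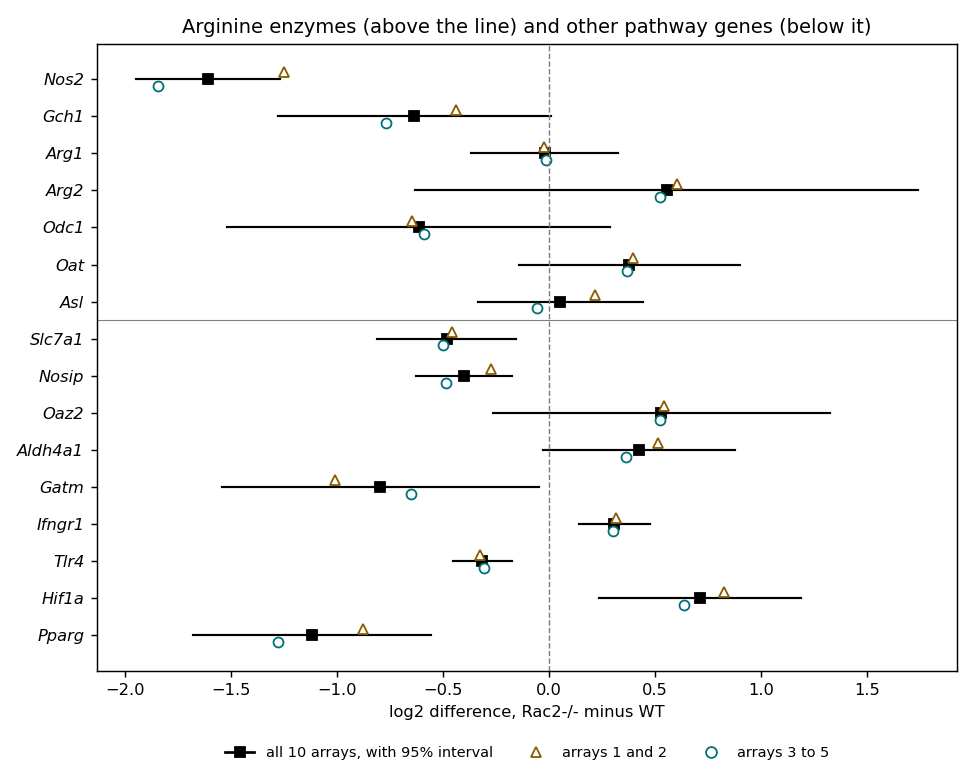
Log2 difference, Rac2-/- minus WT, for the 7 arginine enzymes (above the line) and 9 other pathway genes (below it), those past the threshold in either fit and Aldh4a1. Squares with bars are the difference over 10 arrays with its 95% interval, triangles are the difference within arrays 1 and 2, and circles that within arrays 3 to 5. The interval of Nos2 runs from -1.95 to -1.27, the intervals of the other 6 enzymes reach across 0, and those of Slc7a1, Nosip, Gatm, Ifngr1, Tlr4, Hif1a and Pparg do not, although of these only Tlr4 passed after adjustment.

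Genes around these enzymes were taken from lists of 62 genes, of which 52 had a feature of their own and 50 were tested. The mean was higher in Rac2-/- for 20 of the 50 and lower for 30, and the median difference was -0.03. Without the block 1 of 50 passed the test, beside 1.90% of all features, and with the replicate block 8 did, 3 higher and 5 lower, beside 6.35%. A count of 1 in 50 is at the share of all features. Groups without overlap were seen for 5 of 50 genes, Nosip, Ifngr1, Tlr4, Pparg and Stat6, the last of which was named after its values were seen, beside 4.52% of all features. Separation within both array sets was seen for 14 of 50, beside 13.9% of all features.

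Of 9 genes that carry arginine or ornithine across membranes, none passed without the block and 1 passed with it. Of all features 1.90% and 6.35% did. This was Slc7a1, the cationic amino acid transporter that brings arginine into most cells, at 6.92 to 7.63 (median 7.22) on Rac2-/- arrays and 7.47 to 8.11 (median 7.69) on WT arrays. Its difference was -0.48 (SE 0.15, limma adjusted p = 0.181, and 0.0233 with the replicate block). The groups overlapped through Rac2-/- array 5 but not within either array set, so Slc7a1 was lower in Rac2-/- in 5 of 5 numbered pairs.

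The other genes of nitric oxide and tetrahydrobiopterin moved little. Of 11 tested, 5 had a higher and 6 a lower mean in Rac2-/-. None passed without the block and 1 passed with it, beside 1.90% and 6.35% of all features. The neuronal synthase Nos1 and the endothelial synthase Nos3 differed by -0.00 and -0.03 (limma adjusted p = 0.999 for each). Nosip, which binds the endothelial and neuronal synthases, stood at 8.64, 8.82, 8.56, 8.59 and 8.26 on Rac2-/- arrays 1 to 5, against 9.06, 8.96, 8.97, 8.92 and 8.97 on WT arrays 1 to 5. Every Rac2-/- array was below every WT array (difference -0.40, SE 0.10, limma adjusted p = 0.0901, and 0.0484 with the replicate block).

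Among 7 polyamine genes 1 passed with the replicate block and none without it, beside 6.35% and 1.90% of all features. Oaz2, an antizyme that binds ornithine decarboxylase and leads it to degradation, stood at 7.54 to 8.95 (median 7.62) on Rac2-/- arrays and at 6.97 to 8.32 (median 7.19) on WT arrays. The groups did not overlap within either array set, so Oaz2 was higher in Rac2-/- in 5 of 5 numbered pairs (difference 0.53, SE 0.36, limma adjusted p = 0.799, and 0.0394 with the replicate block). The difference was 0.30 without Rac2-/- replicate 2. Within both array sets Odc1 lay below WT and Oaz2 above it, a separation seen, in either direction, for 13.9% of all features. Oaz1 of the same list had no feature of its own. A link between Odc1 and Oaz2 was not tested.

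Of 3 genes between ornithine, proline and glutamate that could be tested, none passed in either fit. The nearest was Aldh4a1, which makes glutamate from the product of Oat, at 7.34 to 8.20 on Rac2-/- arrays and 6.96 to 7.71 on WT arrays (difference 0.42, SE 0.20, limma adjusted p = 0.536, and 0.0521 with the replicate block). With a term for the array set its adjusted p was 0.0117, and the groups did not overlap within either array set. Of 6 genes of the urea cycle and of other arginine enzymes, 1 passed with the replicate block, beside 6.35% of all features. Gatm, which moves the amidino group of arginine to glycine in the first step of creatine synthesis, stood at 8.96, 9.28, 10.23, 10.18 and 10.53 on Rac2-/- arrays 1 to 5 and at 9.90, 10.36, 10.91, 10.86 and 11.13 on WT arrays 1 to 5. Within each array set every Rac2-/- array was the lower (difference -0.80, SE 0.34, limma adjusted p = 0.431, and 0.0065 with the replicate block).

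Signals known to induce Nos2 did not share a direction. Of 7 tested genes 3 had a higher and 4 a lower mean in Rac2-/-. Tlr4, the receptor for bacterial lipopolysaccharide, was the gene that passed without the block, beside 1.90% of all features. Tlr4 stood at 9.91 to 10.01 (median 9.98) on Rac2-/- arrays, against 10.22 to 10.33 (median 10.30) on WT arrays. The groups did not overlap, and the difference was small beside that of Nos2 (-0.32, SE 0.06, 1.24-fold lower, limma adjusted p = 0.0312). The call was kept in 1 of 10 fits that each left out an array, the one without Rac2-/- replicate 1, and the adjusted p was 0.101 without WT replicate 3.

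The other signals that passed, with the replicate block and not without it, were higher in Rac2-/-. With the block 6.35% of all features passed. Ifngr1, the ligand-binding chain of the interferon gamma receptor, stood at 11.79 to 12.01 on Rac2-/- arrays and 11.52 to 11.72 on WT arrays, without overlap (difference 0.31, SE 0.08, limma adjusted p = 0.0812, and 0.0244 with the block). Hif1a, the oxygen-regulated transcription factor, stood at 11.12, 11.52, 11.78, 11.78 and 11.33 on Rac2-/- arrays 1 to 5 and at 10.82, 10.16, 11.22, 11.16 and 10.60 on WT arrays 1 to 5. The groups overlapped over all arrays and not within either array set (difference 0.71, SE 0.21, limma adjusted p = 0.172, and 0.0378 with the block).

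Of 7 signals known to induce Arg1, 1 passed with the replicate block and none without it, beside 6.35% and 1.90% of all features. Pparg, a lipid-sensing nuclear receptor, stood at 7.95, 7.63, 8.27, 8.21 and 8.28 on Rac2-/- arrays 1 to 5, against 8.48, 8.87, 9.33, 9.30 and 9.97 on WT arrays 1 to 5. Every Rac2-/- array was below every WT array (difference -1.12, SE 0.25, 2.17-fold lower, limma adjusted p = 0.0600, and 0.0121 with the replicate block). Stat6, which carries the signal of IL-4, had means of 10.69 ± 0.07 in Rac2-/- and 10.87 ± 0.04 in WT (SD, n = 5 each), and it passed in neither fit (difference -0.18, limma adjusted p = 0.314, and 0.135 with the replicate block).

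**Figure D3:**
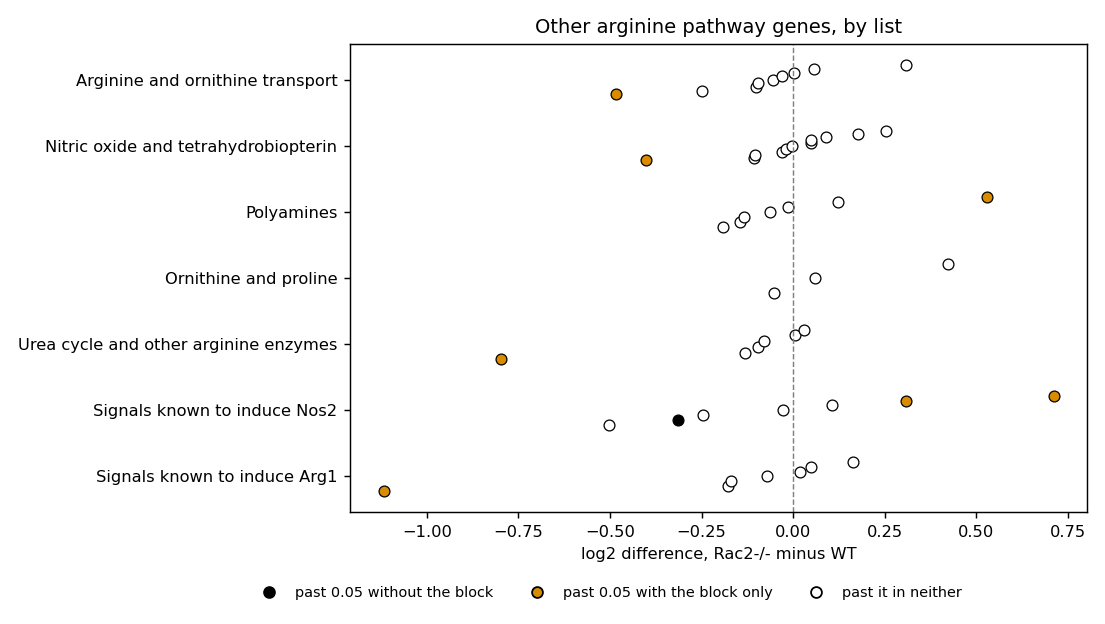
Log2 difference, Rac2-/- minus WT, of the 50 tested genes around the arginine enzymes, with 1 row for each of 7 lists and 1 point for each gene, spread vertically only for legibility. The filled black point is Tlr4, the gene past an adjusted p of 0.05 without the block, orange points passed with the replicate block and not without it, and open points passed in neither fit. The median size of a difference was 0.106, with Pparg at -1.12 and Hif1a at 0.71 at the ends.

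The genes whose values ran closest to those of Nos2 over the 10 arrays, among 16881 genes, were Brcc3 (Pearson r = 0.987), Hspa1l (0.985) and Gca (0.984). After the mean of each array set was subtracted they were Gla (0.994), Dck (0.991) and Rab6b (0.988). All of these had a lower mean in Rac2-/-, Gca by a difference of -1.09 and Brcc3 by -0.68. This direction follows from the choice by correlation with Nos2, whose groups do not overlap, and is no separate result. For Arg1 they were Snx22 (0.944), 1700003E16Rik (0.940) and 4930571K23Rik (0.934), and after subtraction Mfsd4b2 (0.958), Rnf141 (0.936) and Ap5s1 (0.928). None of these differed between the genotypes by more than 0.03, which likewise goes with their choice by likeness to Arg1.

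Markers of other cell types were read in the same RNA. Of the mast cell and basophil markers 4 were tested and none passed in either fit. The largest differences were those of the proteases Prss34 (-1.18, at 5.54 to 6.37 in Rac2-/- and 6.07 to 8.00 in WT), Cpa3 (-0.98, at 3.87 to 4.42 in Rac2-/- and 4.11 to 6.05 in WT) and Mcpt8 (-0.84, at 4.62 to 5.30 in Rac2-/- and 5.03 to 6.66 in WT). Fcer1a and Ms4a2, which encode chains of the IgE receptor, did not pass the filter and stood at 3.79 to 3.87 and 3.70 to 3.90 in Rac2-/-, against 3.74 to 4.25 and 3.68 to 4.25 in WT.

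The mean over 7 neutrophil and precursor markers was 6.87 to 8.82 on Rac2-/- arrays and 7.16 to 9.49 on WT arrays, and none passed in either fit. For 6 fibroblast markers, 5 of them tested, the mean was 5.90 to 6.36 in Rac2-/- and 6.29 to 6.66 in WT. None of these passed without the block, and Dcn passed with it as lower in Rac2-/- (difference -1.21, adjusted p = 0.0173). The 5 dendritic cell markers averaged 5.89 to 6.24 in Rac2-/- and 6.04 to 6.47 in WT. Ccr7 passed as lower in Rac2-/- in both fits (difference -0.91, limma adjusted p = 0.0141 without the block). It stood at 6.27 to 7.03 in Rac2-/- and 7.30 to 7.77 in WT. With the replicate block Siglech passed as lower (adjusted p = 0.0117) and Xcr1 as higher (adjusted p = 0.00877). Of all features 1.90% passed without the block and 6.35% with it. The 4 lymphocyte markers that could be read averaged 4.82 to 5.25 in Rac2-/- and 4.91 to 5.39 in WT, and neither of the 2 tested passed in either fit. The part of these cell types in the differences of the arginine genes was not tested.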

How the data were processed

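RNA of 5 Rac2-/- and 5 WT BMDM cultures was measured on Affymetrix mouse gene arrays. The authors deposited log2 values made with RMA for 34760 features. The log base was taken from the values (1.69 to 13.7, array medians 6.07 to 6.14). No source used here says if the ComBat step of the methods had been applied to them. Symbols came from the platform annotation, brought up to date through the annotation of GRCm38.p6 (21640 features with a single symbol, 1321 with several and 11799 unlisted).

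Groups and replicate numbers came from the labels. Features were ranked by their fourth-highest value over 10 arrays, and the number of genes that the methods keep was kept from the top (4.73 or more). The fits used limma 3.58.1 in R 4.3.3 and were run on simulated data. The simulation held a shift between the array sets only for the array set term and ComBat. It therefore does not show how the unblocked and replicate block fits behave under the array sets of these data. Same-numbered Rac2-/- and WT arrays deviated together (correlations of 0.493 to 0.716), as did differently numbered arrays of the same set (0.476 to 0.724). The values thus show the array sets, but no closer tie between same-numbered arrays. The numbers were used as a block in an alternative fit, a pairing that neither the labels nor the values establish. Calls that passed only with this block are to be read with that limit. A limma fit with a term for the array set in its place uses no pairing, and 2524 features passed it. There the adjusted p was 0.00196 for Pparg, 0.00418 for Ifngr1, 0.00431 for Gatm and 0.00738 for Oaz2. It was 0.0140 for Nosip, 0.0310 for Hif1a and 0.0326 for Slc7a1.

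The genes, the lists of pathway and marker genes and the array sets were chosen with earlier results of these data known. Named were the 8 genes, Rac2, list genes past the threshold in the unblocked or blocked fit, the leading gene of each list by adjusted p, and for Nos2 and Arg1 the 3 genes of the highest correlation. Alternatives were other filters, terms or ComBat for the array sets, each set alone, variance models, weights, normalizations, the mean of a gene's features and leaving out each array.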

Additional observations from a re-analysis of the deposited data

Results flagged for a closer look

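Nos2 on Rac2-/- array 5 had a log2 value of 5.97, below the other Rac2-/- arrays at 6.17 to 6.24, and this gap was 0.730 of the group's range, above the critical value of 0.71 for 5 samples. Arg1 on Rac2-/- array 2 had a log2 value of 5.91, above the other Rac2-/- arrays at 5.21 to 5.38, a gap of 0.756 of the range. These were 2 of 34 groups examined for a sample far from the others, of which chance flags about 1 in 20. Without Rac2-/- replicate 5 the Nos2 difference was -1.56 (limma adjusted p = 0.00173), and without Rac2-/- replicate 2 the Arg1 difference was -0.15 (limma adjusted p = 0.842).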

How the results depend on the processing

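The Nos2 difference kept its direction in 22 of 22 alternatives and its call in all but arrays 1 and 2 alone (-1.25, adjusted p = 0.191). The features past the threshold (514) numbered 1716 with the replicate block, 2524 with an array set term, 4386 after ComBat on the array sets, 2 in arrays 1 and 2 only, 1487 in arrays 3 to 5 only and 1811 with array weights. They numbered 245 (without WT replicate 3) to 625 (without Rac2-/- replicate 1) when each array was left out. The arginine enzymes past it (1) numbered 3, 4, 4, 0 and 3 under the first 5 of these, and the other pathway genes (1) numbered 8, 10, 15, 0 and 6, then 9 with array weights, 2 with the 20000 features of the stricter filter, 2 with quantile normalization again, 0 with trended and robust variance and 0 to 2 without each array in turn. The ComBat fit does not count the degrees of freedom that ComBat spends, and each array set alone holds fewer arrays. Features past the test of genotype by array set numbered 0 to 8 without each array, 8 without Rac2-/- replicate 2. Arg1 turned to 0.021 with array weights and ranged from -0.15 to 0.045 without each array, and Asl turned to -0.056 in arrays 3 to 5 only and ranged from -0.074 to 0.12 without each array. Arg1 did not reach the stricter filter and has no value there. The replicate block changed the calls of Odc1, Oat, Slc7a1, Nosip, Oaz2, Gatm, Ifngr1, Hif1a and Pparg and no other call among the named genes. Over these genes and all alternatives 305 results stayed on their side of the threshold, 46 passed it anew, 12 no longer passed and 10 reversed. For the values not explained above, the cause was not tested. With 5 arrays a group, the number of arrays limits the precision.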
